A study of Mus musculus with 9 samples.

Results

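In all, 9 genes were followed: 8 genes of the melanocyte lineage (Tyr, Tyrp1, Dct, Pmel, Mlana, Mitf, Sox10 and Kit) and Kitl, which encodes the Kit ligand. They were taken by name, and all 9 of 9 symbols matched a row among the 55357 genes of the deposited table. RNA-seq had been run on keratinocytes sorted from back skin of C57BL/6 mice of the genotype TNC-CREER; tdTomato at postnatal day 60, in 3 groups of 3 libraries each. All mice of all groups had received tamoxifen at 100 µg per g body weight on days 51 and 52, which lets the Tenascin-C-driven Cre switch on the tdTomato reporter. The sort kept cells with surface EPCAM and integrin α6 and divided them by SCA1 and tdTomato. Touchdome carried both, HF (hair follicle) carried neither, and IFE (interfollicular epidermis) carried SCA1 alone. Reporter-positive cells are those in which the Cre was active in the days after tamoxifen. Whether the 3 libraries of a group were made from different mice is not stated in the labels. The p-values therefore reflect variation among libraries, part of which may be technical.

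Melanocytes come from the neural crest, and in hair-bearing mouse skin most of them live in the follicle, where melanocyte stem cells rest in the bulge and hair germ. Mitf is their master transcription factor and Sox10 acts upstream of it. Tyr, Tyrp1 and Dct are related enzymes of pigment synthesis, and Pmel and Mlana encode melanosome proteins. Kit is the receptor by which melanocytes receive the Kit ligand that keratinocytes and dermal cells make. The sort for EPCAM, an epithelial protein, was made for keratinocytes, so melanocyte transcripts bear on which other cells the libraries may hold.

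The promoters of the tyrosinase family share a short motif that Mitf is known to bind, the M-box, and these sequences are shown because their genes are the readout of melanocyte identity here. The RefSeq promoter table (build GRCm38.p6, 250 bases before to 50 bases after a start) held 6 of the 9 genes, and Pmel, Mlana and Sox10 were not among them. Capitals mark the letters TCATGTG (M-box), CATGTG or CACGTG (E-boxes) and ACAAAG or ACAATG (SOX type), on either strand, and each M-box contains a CATGTG. Sequences run 5′ to 3′ on the strand of the gene.
Tyr (chr7:87493463-87493762, - strand): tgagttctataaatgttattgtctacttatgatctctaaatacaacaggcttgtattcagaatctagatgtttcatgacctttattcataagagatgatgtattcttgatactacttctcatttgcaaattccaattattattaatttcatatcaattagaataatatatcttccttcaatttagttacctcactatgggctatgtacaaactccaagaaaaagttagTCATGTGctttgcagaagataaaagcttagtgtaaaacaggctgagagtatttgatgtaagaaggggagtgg
Tyrp1 (chr4:80833963-80834262, + strand): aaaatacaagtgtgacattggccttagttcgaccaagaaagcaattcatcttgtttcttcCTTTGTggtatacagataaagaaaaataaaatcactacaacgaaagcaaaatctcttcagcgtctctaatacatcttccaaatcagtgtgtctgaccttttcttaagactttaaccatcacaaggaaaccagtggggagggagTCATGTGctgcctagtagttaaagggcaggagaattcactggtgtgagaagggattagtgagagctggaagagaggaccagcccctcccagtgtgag
Dct (chr14:118052197-118052496, - strand): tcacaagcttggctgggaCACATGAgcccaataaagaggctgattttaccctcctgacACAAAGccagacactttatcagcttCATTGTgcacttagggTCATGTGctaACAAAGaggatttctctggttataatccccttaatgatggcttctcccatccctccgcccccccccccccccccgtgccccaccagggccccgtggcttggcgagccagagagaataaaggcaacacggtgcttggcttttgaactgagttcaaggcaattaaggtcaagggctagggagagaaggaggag
Mitf (chr6:97991533-97991832, + strand): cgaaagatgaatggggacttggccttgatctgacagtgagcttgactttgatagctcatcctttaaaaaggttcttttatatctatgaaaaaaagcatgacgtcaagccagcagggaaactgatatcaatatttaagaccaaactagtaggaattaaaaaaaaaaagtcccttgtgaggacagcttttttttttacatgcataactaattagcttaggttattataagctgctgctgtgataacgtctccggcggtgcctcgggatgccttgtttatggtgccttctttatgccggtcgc
Kitl (chr10:100015571-100015870, + strand): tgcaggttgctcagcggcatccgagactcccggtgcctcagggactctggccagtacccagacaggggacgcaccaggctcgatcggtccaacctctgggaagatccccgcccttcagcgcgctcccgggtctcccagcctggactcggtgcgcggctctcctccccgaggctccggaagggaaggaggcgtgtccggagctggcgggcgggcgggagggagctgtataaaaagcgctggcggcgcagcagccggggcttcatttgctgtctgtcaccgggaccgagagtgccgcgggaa

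Tyr held an M-box with its first base at -22 from the start, Tyrp1 held one at -47, and Dct held one at -151 and another, on the opposite strand, at -232. Of 32851 promoters of the same length, 3.77% held an M-box, 14.2% a CATGTG and 7.15% a CACGTG. The SOX type letters ACAAAG were found at -190 in Tyrp1 and at -192 and -141 in Dct, against 18.7% of all promoters, and ACAATG was found at -167 in Dct, against 12.6%. None of the 5 motifs was found in the windows of the 3 Mitf starts, the 2 Kit starts or Kitl. The Mitf window printed is that of the most downstream of the 3 starts, the side of the gene from which melanocytes are known to begin their own Mitf isoform. The deposited values are per gene and do not separate these starts.

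The libraries held between 9295059 and 28249763 expected counts. Levels are given as CPM, the count of a gene relative to the TMM-scaled total of its library. The limit that a count of 0 allows, taken as 3 counts and covering counting error only, was 0.114 CPM for the library of greatest depth and 0.316 CPM for that of least depth. On the first principal component of log2 CPM, with 59.2% of the variance, Touchdome replicate 3 lay at -2.9, apart from Touchdome replicates 1 and 2 at -37.6 and -40.7. HF libraries lay at 89.2 to 98.7 and IFE libraries at -75.4 to -57.5. Keratinocyte markers were abundant throughout, with the basal keratin gene Krt5 averaging 18930 ± 1386 CPM in the Touchdome libraries, 11057 ± 305 CPM in the HF libraries and 23468 ± 1447 CPM in the IFE libraries (SD, n = 3 each). The 8 keratinocyte markers summed to between 35287 and 40035 CPM in Touchdome, between 23451 and 25411 CPM in HF and between 46156 and 50044 CPM in IFE libraries.

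The pigment enzyme genes were detected at low levels in Touchdome and HF libraries and were lowest in IFE libraries. In bulk libraries such as these, fewer cells of a type and less RNA per cell cannot be told apart. Tyr, tyrosinase, the rate-limiting enzyme of melanin synthesis, had 2, 7 and 9 counts in Touchdome replicates 1, 2 and 3, against 0, 1 and 2 counts in HF replicates 1, 2 and 3 and 0 counts in each IFE library. No Tyr count was therefore seen in IFE at the greatest summed depth of the 3 groups. Taking 3 counts as the limit over the IFE group and the 18 Touchdome counts as exact, Tyr was at least 9.20-fold higher in Touchdome. This value leaves out the spread between libraries. Against the 3 HF counts the ratio was 7.20-fold, with an exact 95% counting interval of 2.10 to 38.1 that does not include the spread between libraries. Tyr did not pass the filter on low counts and was not tested.

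Tyrp1, an enzyme that stabilises tyrosinase, had 0.703, 2.23 and 5.81 CPM in Touchdome replicates 1, 2 and 3, 0.274, 5.80 and 4.26 CPM in HF replicates 1, 2 and 3, and 0.105, 0 and 0.265 CPM in IFE replicates 1, 2 and 3. In CPM both the Touchdome and the HF libraries lay above every IFE library, and they overlapped each other. HF replicate 1 lay above by a narrow margin, with 6 counts against 7 in the deeper IFE replicate 3. In TPM it lay below that library (0.20 against 0.31), so HF and IFE overlapped. Tyrp1 was higher in HF than in IFE, with 4.52 ± 1.25 on the log2 scale (SE) and an adjusted p of 0.0173 (edgeR). That call ended without IFE replicate 1 (adjusted p = 0.0711) or IFE replicate 2 (0.0612). In Touchdome against IFE the difference was of like size (4.30 ± 1.25) and did not pass (adjusted p = 0.175, edgeR), but it passed with the replicate number as a block (4.26, adjusted p = 0.0450). Touchdome against HF gave -0.22 ± 1.0 and did not pass (adjusted p = 0.910, edgeR). Without Touchdome replicate 3 the values were 3.32 against IFE (adjusted p = 0.469) and -1.22 against HF (0.499).

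Dct, dopachrome tautomerase, also an early marker of the melanocyte lineage, was the most abundant of the 3 enzymes. It had 2.24, 2.15 and 13.7 CPM in Touchdome replicates 1, 2 and 3, 3.02, 14.4 and 7.21 CPM in HF replicates 1, 2 and 3, and 0.473, 1.20 and 0.984 CPM in IFE replicates 1, 2 and 3. Every Touchdome and every HF library stood above every IFE library, while Touchdome and HF overlapped. Dct was higher in HF than in IFE by 3.20 ± 0.88 (SE, log2 scale, adjusted p = 0.0202, edgeR), and the call ended without HF replicate 2 (adjusted p = 0.0542) or without IFE replicate 1, 2 or 3 (0.0825, 0.0634 and 0.0703). Touchdome against IFE gave 2.76 ± 0.88 and did not pass (adjusted p = 0.253, edgeR), and gave 1.31 without Touchdome replicate 3 (adjusted p = 0.707). Touchdome against HF gave -0.43 ± 0.78 (adjusted p = 0.753), and without Touchdome replicate 3 it gave -1.88 (adjusted p = 0.0469, edgeR), which passed.

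Pmel, the fibril protein of the melanosome, did not follow the enzymes in IFE. It had 2.37, 0.626 and 5.56 CPM in Touchdome replicates 1, 2 and 3, 1.92, 4.64 and 3.67 CPM in HF replicates 1, 2 and 3, and 1.74, 1.90 and 1.55 CPM in IFE replicates 1, 2 and 3. The IFE libraries were within 1.22-fold of each other, and Touchdome replicate 2 was the lowest of all 9. Pmel did not pass in any comparison (log2 fold change 0.72 ± 0.62 in Touchdome against IFE, -0.24 ± 0.61 in Touchdome against HF and 0.96 ± 0.62 in HF against IFE, SE, adjusted p = 0.796, 0.828 and 0.261, edgeR). Without Touchdome replicate 3 the values were -0.18 in Touchdome against IFE and -1.14 in Touchdome against HF, and neither passed (adjusted p = 0.996 and 0.231). In the GENCODE annotation Pmel shares 34 exonic bases with Cdk2 and 105 with Dgka, both on the opposite strand. The strand setting of the counts is not given in the sources used here. Dgka stood at 232 to 255 CPM in Touchdome, 145 to 170 CPM in HF and 274 to 279.8 CPM in IFE libraries, and Cdk2 at 62.8 to 70.4, 39.5 to 57.2 and 59.5 to 78.2 CPM. Their part in the Pmel counts was not tested. Mlana, a melanosome membrane protein also called MART, had 6 counts in the 3 Touchdome libraries together, 4 in HF and 3 in IFE, and was not tested.

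**Figure D1:**
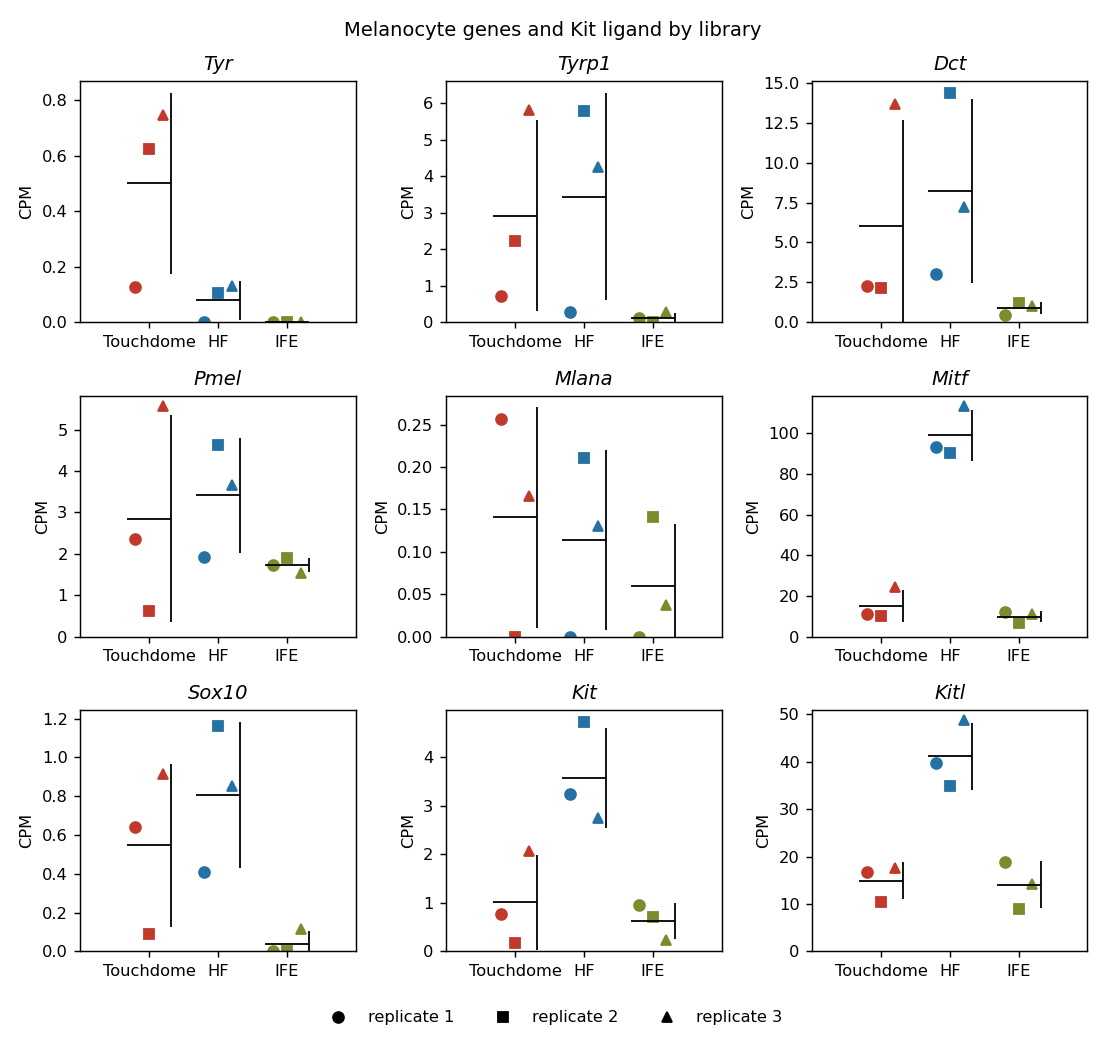
Level of each of the 9 genes in each library, in CPM on a linear axis that starts at 0, for Touchdome, HF and IFE, where marker shapes give the replicate number, horizontal lines the mean and vertical lines 1 SD (cut at 0) over 3 libraries. Mitf and Kitl were high in all 3 HF libraries, whereas Tyrp1 and Dct were low in HF replicate 1 and high in Touchdome replicate 3.

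The regulators divided. Mitf was high in the follicle and far above the pigment genes. It had 11.2, 10.4 and 24.4 CPM in Touchdome replicates 1, 2 and 3, 93.4, 90.2 and 113 CPM in HF replicates 1, 2 and 3, and 12.0, 6.68 and 11.1 CPM in IFE replicates 1, 2 and 3. HF lay above every library of the other groups, with a spread of 1.26-fold between its lowest and highest library. Mitf was higher in HF than in IFE by 3.31 ± 0.34 (SE, log2 scale, adjusted p = 6.53e-05, edgeR) and lower in Touchdome than in HF by a log2 fold change of -2.69 ± 0.34 (adjusted p = 0.000335). These calls held in all 17 alternatives of each. Touchdome against IFE gave 0.61 ± 0.33 and did not pass (adjusted p = 0.600), with only Touchdome replicate 3 above all IFE libraries, and gave 0.11 without it (adjusted p = 0.996, edgeR).

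Sox10, the neural crest factor, had 10, 1 and 11 counts in Touchdome replicates 1, 2 and 3, 9, 11 and 13 counts in HF replicates 1, 2 and 3, and 0, 0 and 3 counts in IFE replicates 1, 2 and 3. In CPM this was 0.639, 0.0894 and 0.913 in Touchdome, 0.411, 1.16 and 0.852 in HF, and 0, 0 and 0.114 in IFE. HF lay above IFE without overlap, and Touchdome replicate 2 fell to the IFE range. The ratio of summed counts to IFE was 11.3-fold for Touchdome (95% counting interval 3.38 to 58.7) and 14.1-fold for HF (4.41 to 71.7). Sox10 passed in HF against IFE (adjusted p = 0.0259, edgeR), but not without HF replicate 2 or 3 (0.0785 and 0.0656) or without IFE replicate 1 or 2 (0.0861 and 0.0756). It did not pass in Touchdome against IFE (0.302) or in Touchdome against HF (-0.51 ± 0.99, adjusted p = 0.769), nor without Touchdome replicate 3 (0.738 against IFE and 0.621 against HF).

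**Figure D2:**
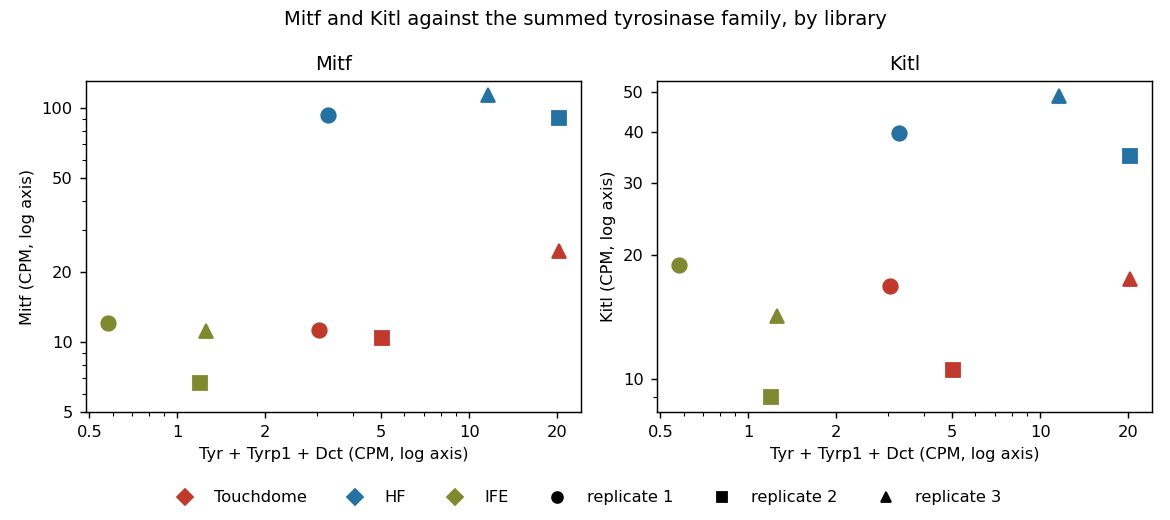
Mitf (left) and Kitl (right) against the summed level of Tyr, Tyrp1 and Dct, in CPM on log axes, with 1 point per library, colours for the groups and marker shapes for the replicate number. Touchdome replicate 1 and HF replicate 1 have nearly the same summed enzyme level (3.07 and 3.29 CPM) but 11.2 and 93.4 CPM of Mitf.

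Mitf and the enzymes ordered the libraries differently. The summed CPM of Tyr, Tyrp1 and Dct was 3.07, 5.01 and 20.3 in Touchdome replicates 1, 2 and 3, 3.29, 20.3 and 11.6 in HF replicates 1, 2 and 3, and 0.579, 1.20 and 1.25 in IFE replicates 1, 2 and 3. Touchdome replicate 3 and HF replicate 2 were equal to 3 digits in this sum, while Mitf was at 24.4 CPM in the first and 90.2 CPM in the second. Mitf per unit of the sum was 3.65, 2.07 and 1.20 in Touchdome, 28.4, 4.44 and 9.76 in HF, and 20.7, 5.59 and 8.85 in IFE replicates 1, 2 and 3. Every Touchdome library was below every HF and IFE library in this ratio, which was formed after the values were seen and was not tested. Within HF, Tyrp1 differed 21.1-fold and Dct 4.79-fold between the lowest and highest library, against 1.26-fold for Mitf, 1.72-fold for Kit and 1.40-fold for Kitl.

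Kit, the receptor tyrosine kinase, was low everywhere and highest in HF. It had 0.767, 0.179 and 2.08 CPM in Touchdome replicates 1, 2 and 3, 3.24, 4.74 and 2.75 CPM in HF replicates 1, 2 and 3, and 0.947, 0.703 and 0.227 CPM in IFE replicates 1, 2 and 3. In CPM HF lay above all other libraries, and Touchdome spanned the IFE range. In TPM Touchdome replicate 3 (1.21) lay above HF replicates 1 and 3 (1.11 and 1.19), so Touchdome and HF overlapped. Kit was higher in HF than in IFE by 2.52 ± 0.77 (SE, log2 scale, adjusted p = 0.0224, edgeR), a call that ended without HF replicate 2 (adjusted p = 0.0740) or IFE replicate 3 (0.0781). Touchdome against HF gave -1.81 ± 0.75 and did not pass (adjusted p = 0.101). It passed without Touchdome replicate 3 (-2.84, adjusted p = 0.0255). Touchdome against IFE gave 0.71 ± 0.77 (adjusted p = 0.853), and -0.32 without Touchdome replicate 3 (0.996).

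Kitl, the ligand, was highest in HF and nearly level between Touchdome and IFE. It had 16.8, 10.5 and 17.5 CPM in Touchdome replicates 1, 2 and 3, 39.7, 34.9 and 48.9 CPM in HF replicates 1, 2 and 3, and 18.9, 9.0 and 14.2 CPM in IFE replicates 1, 2 and 3. All HF libraries stood above all others, and replicate 2 was the lowest of each group. Kitl was higher in HF than in IFE by 1.55 ± 0.26 (SE, log2 scale, adjusted p = 0.000792, edgeR) and lower in Touchdome than in HF by a log2 fold change of -1.46 ± 0.27 (adjusted p = 0.00180). Touchdome against IFE gave 0.09 ± 0.27 (adjusted p = 0.966).

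The length-scaled values gave Kitl less separation. The TPM deposited by the authors for Kitl was 9.15, 8.18 and 21.6 in Touchdome replicates 1, 2 and 3, 18.3, 12.5 and 35.7 in HF replicates 1, 2 and 3, and 13.7, 2.57 and 6.49 in IFE replicates 1, 2 and 3. In TPM, HF replicate 2 lay below Touchdome replicate 3 and IFE replicate 1, so HF overlapped both groups. With limma on log2(TPM + 1), Kitl gave 1.53 in HF against IFE (adjusted p = 0.0574) and -0.73 in Touchdome against HF (adjusted p = 0.402), and neither passed. The ratio of TPM to CPM of Kitl ranged 4.32-fold over the 9 libraries, above that of 99.1% of 11695 genes with a mean count of at least 50, whose median was 1.38-fold. For Mitf it ranged 2.11-fold. A TPM divides by a length that depends on the transcripts to which reads were assigned. The table gives no transcript values, and the cause was not tested. In TPM, HF was still above both other groups for Mitf, at 3.81, 4.59 and 15.1 in Touchdome, 52.7, 46.4 and 55.5 in HF, and 5.56, 1.96 and 3.92 in IFE replicates 1, 2 and 3.

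**Figure D3:**
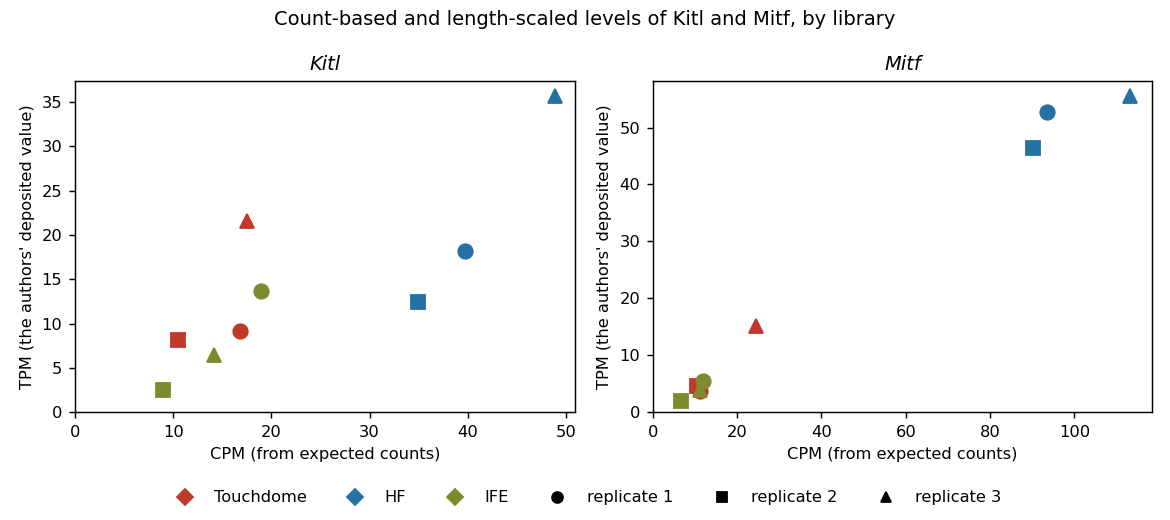
Kitl (left) and Mitf (right) in each library, with CPM from expected counts on the horizontal axis and the authors' TPM on the vertical axis, colours for the groups and marker shapes for the replicate number. Kitl in HF replicate 2 had 34.9 CPM but 12.5 TPM, below the 21.6 TPM of Touchdome replicate 3.

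Per length, in mean TPM, the order within HF was Mitf (51.5), Kitl (22.2), Dct (8.22), Pmel (3.41), Tyrp1 (3.05), Kit (1.30), Sox10 (0.870), Mlana (0.380) and Tyr (0.0233). In Touchdome it was Kitl (13.0), Mitf (7.84), Dct (5.15), Tyrp1 (2.80), Pmel (2.60), Kit (0.587), Tyr (0.390), Mlana (0.377) and Sox10 (0.357). In IFE it was Kitl (7.58), Mitf (3.81), Pmel (1.33), Dct (0.670), Kit (0.393), Mlana (0.130), Tyrp1 (0.127), Sox10 (0.0233) and Tyr, which was listed at 0. The lead of Mitf was larger than the spread only in HF, where its libraries had 46.4 to 55.5 TPM and those of Kitl 12.5 to 35.7 TPM. Touchdome replicate 3 had the highest TPM of its group for every one of these genes but Mlana. In Touchdome the ranges of Kitl, Mitf, Dct, Tyrp1 and Pmel overlapped from one to the next.

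Of the 7 genes tested, 6 were higher in HF than in IFE and 0 lower, where 33.0% of all 15046 genes tested were called, 17.1% higher and 16.0% lower. Mitf and Kitl were lower in Touchdome than in HF and 0 of the 7 were higher, where 24.6% of all genes were called, 11.8% higher and 12.8% lower. In Touchdome against IFE 0 of the 7 passed with edgeR, where 1.30% of all genes were called, 1.22% higher and 0.0798% lower. With the replicate number as a block, edgeR called Tyrp1 (4.26, adjusted p = 0.0450), and 282 of all genes were higher and 67 lower. In the main fit, without the block, Tyrp1, Dct and Sox10 had an unadjusted p under 0.05 in Touchdome against IFE (0.00583, 0.0114 and 0.0170, edgeR). In the same comparison DESeq2 called Tyrp1 (4.45, adjusted p = 0.00210) and Dct (2.78, 0.00529). The filter on low counts had removed Tyr and Mlana.

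**Figure D4:**
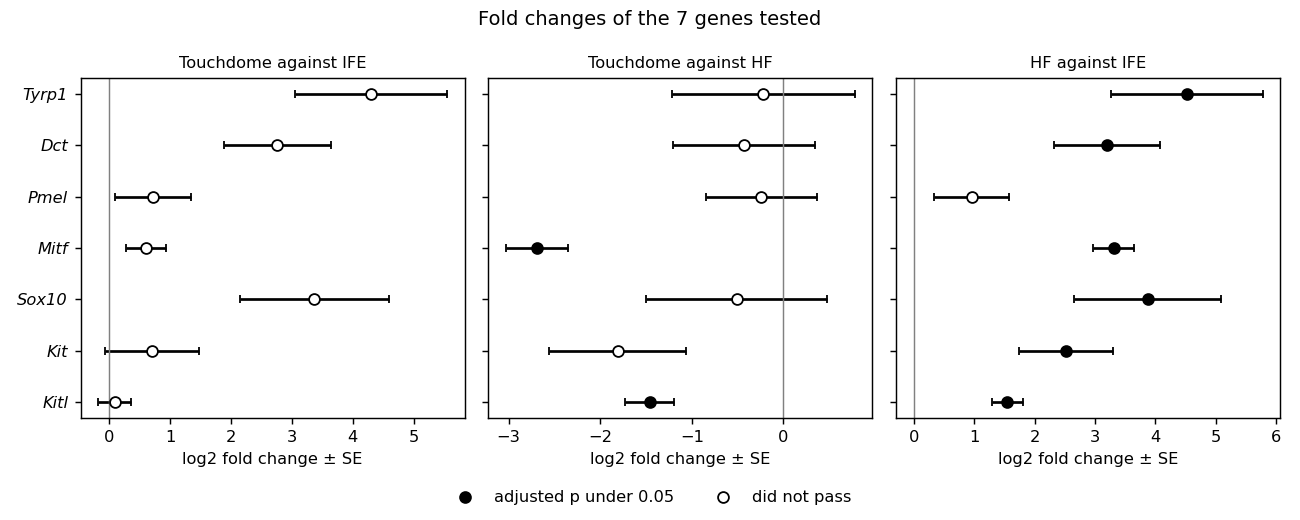
Log2 fold change of the 7 genes tested, with bars of 1 SE, in Touchdome against IFE, Touchdome against HF and HF against IFE, where filled points passed at an adjusted p under 0.05 and open points did not (edgeR). Mitf and Kitl were below 0 in Touchdome against HF and above 0 in HF against IFE. The Sox10 value against IFE rests on 3 IFE counts.

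A list of 20 other genes of melanocyte function was read beside the 9, and 11 passed the filter on low counts. In HF against IFE 3 were higher and 4 lower, beside 17.1% and 16.0% of all genes (median log2 fold change -0.80, against 0 over all genes tested). In Touchdome against HF 4 were higher and 0 lower, beside 11.8% and 12.8% of all genes (median 0.85, against 0). In Touchdome against IFE 1 was higher and 0 lower, beside 1.22% and 0.0798% of all genes (median 0.28, against 0). These medians are the same with Ednrb, which had 0 IFE counts, at its lower bound. Pax3 and Ednrb, genes of the early lineage, were higher in HF than in IFE, at low levels. Ednrb, the endothelin receptor of melanoblasts, had 1, 0 and 11 counts in Touchdome, 19, 28 and 10 in HF and 0 in each IFE library. Taking 3 counts as the IFE limit and the HF counts as exact, HF was at least 24.3-fold higher than IFE. Ednrb was called in HF against IFE (adjusted p = 0.00999, edgeR), a call that ended with limma on log2(TPM + 1) (0.0513). Touchdome against HF gave -2.16 ± 1.22 for Ednrb and did not pass (adjusted p = 0.246), but passed without Touchdome replicate 3 (-5.07, adjusted p = 0.0470). Pax3, a neural crest transcription factor, had 0.703, 0.536 and 1.33 CPM in Touchdome, 1.55, 2.00 and 0.721 CPM in HF, against 0.158, 0 and 0.0379 CPM in IFE replicates 1, 2 and 3. It was higher in HF than in IFE by 4.25 ± 0.97 (adjusted p = 0.00455), and in Touchdome against IFE it gave 3.53 ± 0.98 and did not pass (adjusted p = 0.134, edgeR), although those groups did not overlap and DESeq2 called it (3.67, 0.0223). Without Touchdome replicate 3 that comparison gave 3.08 (adjusted p = 0.443, edgeR). The IFE side of Pax3 rests on 4 counts.

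Rab27a, Mreg, Rab38 and Bace2 were the 4 list members lower in HF than in IFE. Rab27a, a small GTPase that ties melanosomes and other granules to their motor, had 52.7, 69.4 and 38.5 CPM in Touchdome, 4.25, 6.32 and 4.46 CPM in HF, against 68.9, 86.9 and 70.4 CPM in IFE replicates 1, 2 and 3. It was lower in HF than in IFE by a log2 fold change of -3.94 ± 0.24 (adjusted p = 2.12e-07, edgeR) and higher in Touchdome than in HF by 3.45 ± 0.24 (adjusted p = 9.31e-07). Mreg, melanoregulin, and Rab38, a GTPase of melanosome protein traffic, were lower in HF than in IFE by -1.52 ± 0.14 and -0.88 ± 0.16, and higher in Touchdome than in HF by 1.49 ± 0.14 and 0.86 ± 0.16. All 3 are known from other cell types as well. Bace2, a protease that cuts Pmel, was lower in HF than in IFE (-1.23 ± 0.32, adjusted p = 0.0130), except without HF replicate 3 (adjusted p = 0.0547).

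Gpnmb was the 1 list member called by edgeR in Touchdome against IFE, and Trpm1 had its highest mean level in Touchdome. Gpnmb, a glycoprotein related to Pmel that macrophages also make, had 28.1, 36.9 and 22.6 CPM in Touchdome, 21.6, 30.7 and 22.4 CPM in HF, against 8.21, 7.46 and 12.2 CPM in IFE replicates 1, 2 and 3. It was higher than IFE in Touchdome (1.64 ± 0.24, adjusted p = 0.00418, edgeR) and in HF (1.40 ± 0.24, adjusted p = 0.000553). Trpm1, a channel gene of melanocytes, had 1.21, 4.20 and 4.90 CPM in Touchdome, 0, 0.422 and 0.328 CPM in HF, against 1.10, 0.703 and 1.25 CPM in IFE replicates 1, 2 and 3. It was higher in Touchdome than in HF by 3.91 ± 0.94 (adjusted p = 0.00838, edgeR). Touchdome and IFE overlapped, and Touchdome against IFE gave 1.73 ± 0.80 and did not pass (adjusted p = 0.466). HF libraries, which held more Mitf than any Touchdome library, held less Trpm1 than any. Mc1r, the melanocortin receptor, had 0 counts in Touchdome, 6 in HF and 0 in IFE, and Gpr143 had 0 in all 9 libraries. In Touchdome, HF and IFE, Slc24a5 had 3, 25 and 0 summed counts, Ptgds 12, 27 and 7, and Slc24a4 0, 12 and 0. Slc45a2 had 1, 5 and 0, Oca2 2, 1 and 0, Cdh19 5, 0 and 0, and Cited1 8, 1 and 7. These genes did not pass the filter on low counts and were not tested.

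**Figure D5:**
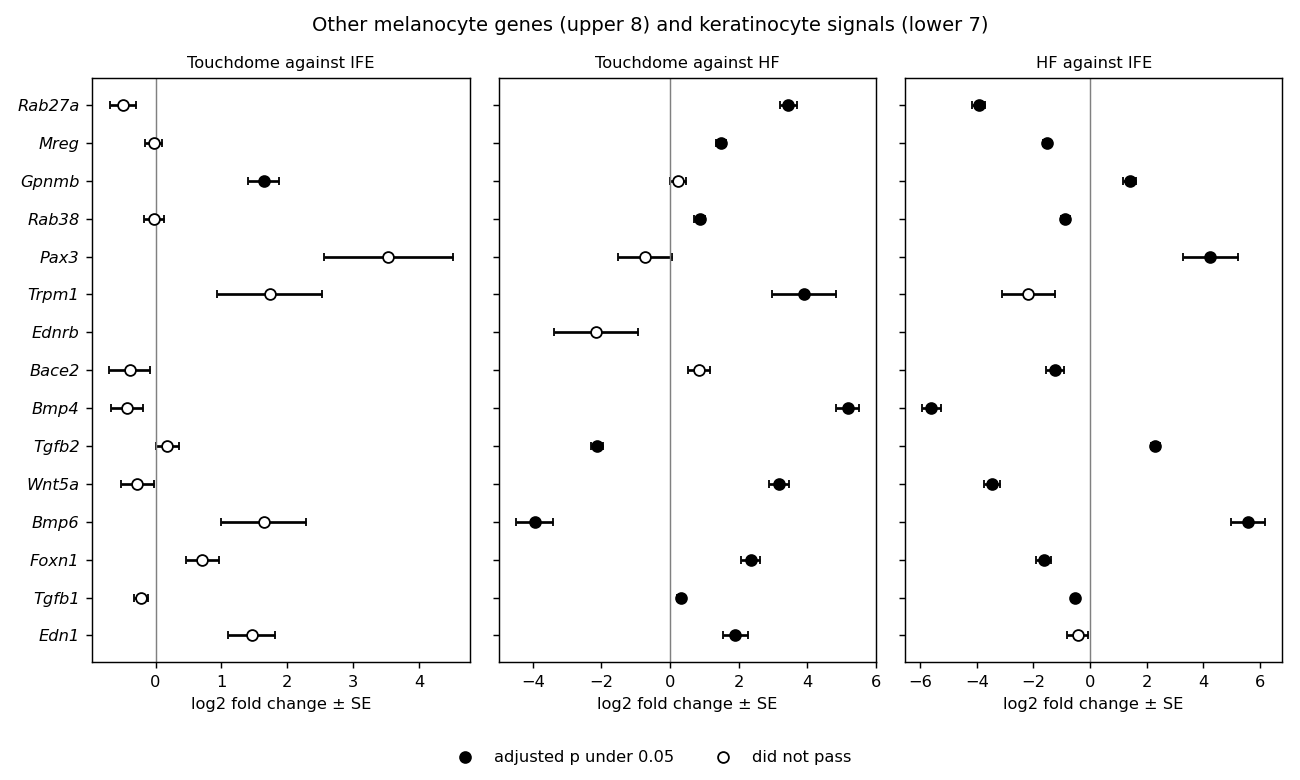
Log2 fold change with bars of 1 SE for 8 other melanocyte genes (upper) and 7 keratinocyte signals (lower) in Touchdome against IFE, Touchdome against HF and HF against IFE, where filled points passed at an adjusted p under 0.05 (edgeR). Ednrb is left out against IFE, where it had 0 counts. In Touchdome against IFE 1 of these 15 genes, Gpnmb, passed with edgeR, beside 1.30% of all genes tested. The 15 were chosen from list members called in at least 1 comparison. Most values in Touchdome against HF have the opposite sign to those in HF against IFE, which share the HF libraries.

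Of 19 matched genes for other signals that reach melanocytes from keratinocytes or their surroundings, 13 were tested. In Touchdome against IFE 0 passed with edgeR, beside 1.22% of all genes higher and 0.0798% lower. There DESeq2 called Edn1 (1.46, adjusted p = 0.00642). Edn1, Bmp6 and Foxn1 had an unadjusted p under 0.05 with edgeR (0.00136, 0.0257 and 0.0151). In Touchdome against HF 6 were higher and 2 lower, beside 11.8% and 12.8% of all genes. In HF against IFE 2 were higher and 6 lower, beside 17.1% and 16.0% of all genes. Their median log2 fold changes were -0.22, 0.51 and -0.54 in the 3 comparisons, against 0 over all genes. Tgfb2, a growth factor known to hold melanocyte stem cells at rest, averaged 11.8 ± 1.82 CPM in Touchdome, 51.6 ± 0.814 CPM in HF and 10.3 ± 2.07 CPM in IFE (SD, n = 3 each). It was higher in HF than in IFE by 2.31 ± 0.17 (adjusted p = 7.63e-07, edgeR), so it was high in the same group as Kitl. Bmp6 was higher in HF than in IFE too (5.59 ± 0.61) and lower in Touchdome than in HF (-3.95 ± 0.55).

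Other signals were lower in HF. Bmp4 averaged 46.0 ± 8.63 CPM in Touchdome, 1.28 ± 0.771 CPM in HF and 62.1 ± 11.0 CPM in IFE (SD, n = 3 each), and Wnt5a 27.8 ± 8.40, 3.02 ± 1.15 and 33.9 ± 2.08 CPM. Foxn1, the nude gene, whose factor acts in keratinocytes that attract melanocytes, was higher in Touchdome than in HF by 2.35 ± 0.27 (adjusted p = 4.85e-05, edgeR) and lower in HF than in IFE by a log2 fold change of -1.64 ± 0.27. Tgfb1 differed from HF in Touchdome by 0.32 ± 0.11 (adjusted p = 0.0424), a call that ended without any 1 of the 6 Touchdome and HF libraries or without IFE replicate 3 (0.0625 to 0.130), or without the low-count filter (0.107), and was lower in HF than in IFE (-0.54 ± 0.11, adjusted p = 0.00164). Edn1, endothelin 1, a mitogen for melanocytes, had 10.4, 6.26 and 18.7 CPM in Touchdome, 3.52, 3.37 and 2.56 CPM in HF, against 4.52, 4.15 and 4.16 CPM in IFE replicates 1, 2 and 3. Touchdome lay above both other groups without overlap, and Edn1 was higher in Touchdome than in HF (1.90 ± 0.37, adjusted p = 0.00205). Against IFE it gave 1.46 ± 0.36 and did not pass (adjusted p = 0.0772), but passed without Touchdome replicate 2 (1.76, adjusted p = 0.0173) and without the filter on low counts (1.45, 0.0109). Without Touchdome replicate 3, its highest library, Edn1 gave 0.96 against IFE and did not pass (adjusted p = 0.417, edgeR). Edn3, Pomc and Dkk1 had at most 3 counts in any library, and Asip, the agouti gene, had 5 counts in Touchdome and 0 in HF and IFE.

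Markers of other cells that express these genes were read in the same libraries. Kit is also the receptor of mast cells, and 7 of 10 mast cell markers had 0 counts in all 9 libraries, among them Cpa3, Mcpt4 and Tpsb2. The summed mast cell list stood at 0 to 0.639 CPM in Touchdome, 0.457 to 1.05 CPM in HF and 2.08 to 2.53 CPM in IFE. In IFE it came mostly from Mrgprb2, at 1.55 to 2.53 CPM, and in HF from Hdc alone, at 0.457 to 1.05 CPM. Sox10 is also a Schwann cell gene. Of 10 Schwann cell markers 6 were tested. In HF against IFE 1 of them was higher and 2 were lower, beside 17.1% and 16.0% of all genes. The higher one was Ncam1, which had 2 IFE counts (72.9-fold, 95% counting interval 19.7 to 609). The summed list, led by Erbb3, which keratinocytes also express, stood at 319 to 345 CPM in Touchdome, 215 to 250.2 CPM in HF and 293 to 435 CPM in IFE.

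The summed CPM of 8 fibroblast and dermal papilla markers was higher in every Touchdome and HF library than in any IFE library. Each of the 8 had counts in at least 1 library. In CPM the same order held for Tyrp1 and Dct, and in TPM for Dct only. Of the 6 fibroblast and dermal papilla markers tested, 2 were higher and 0 lower in Touchdome against IFE, beside 1.22% and 0.0798% of all genes. In HF against IFE 4 were higher and 0 lower, beside 17.1% and 16.0% of all genes. Their sum was 46.5, 49.5 and 91.2 CPM in Touchdome replicates 1, 2 and 3, 86.3, 66.4 and 89.8 CPM in HF replicates 1, 2 and 3, and 1.16 to 3.26 CPM in IFE. The HF sum was mostly Col1a2, which averaged 18.5 CPM in Touchdome, 65.2 CPM in HF and 0.297 CPM in IFE. Dcn, at 21.8 CPM in Touchdome, 0.0218 CPM in HF and 0.118 CPM in IFE, and Col3a1, at 7.87 CPM in Touchdome, 0.262 CPM in HF and 0.251 CPM in IFE, were near 0 in HF. Col1a1 had 2.43, 3.58 and 31.1 CPM in Touchdome replicates 1, 2 and 3, so the library with the most Dct among Touchdome also had the most Col1a1. In HF, Col1a1 had 14.7, 6.53 and 11.7 CPM in replicates 1, 2 and 3, and the library with the most Dct, replicate 2, had the least. The 8 Langerhans and T cell markers summed to 165, 140 and 302 CPM in Touchdome replicates 1, 2 and 3, to 443, 412 and 138 CPM in HF replicates 1, 2 and 3, and to 103 to 216 CPM in IFE. The 6 endothelial markers summed to 2.82 to 3.20 CPM in Touchdome, 0.632 to 2.70 CPM in HF and 0.631 to 0.946 CPM in IFE. The 8 Merkel cell markers summed to 1.52 to 10.6, 3.37 to 4.0 and 0.114 to 0.316 CPM. Of these 8, 3 had 0 counts throughout (Atoh1, Sox2 and Chga), and 2 were tested. In Touchdome against IFE 1 Merkel cell marker was higher, beside 1.22% of all genes. In HF against IFE 2 were higher, beside 17.1% of all genes, and in Touchdome against HF 0 were called. The part of these cells in the levels of the 9 genes was not tested.

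Genes most like a member in pattern were sought by Pearson's r of log2 CPM over the 9 libraries, which fall into 3 groups, among 15010 other named genes. For Kitl they were Smad7, Hibadh, N4bp2, Egr3 and Ypel2 (r from 0.986 to 0.992), and Mitf ranked 95th with r = 0.95. For Dct they were Them4, Slc7a8, Adamts5, Art3 and Fam83a (0.923 to 0.964), with Sox10 ranked 19th, Tyrp1 47th, Mitf 1391st and Kitl 2995th. For Tyrp1 they were Sept6, Extl2, Mr1, Gm35339 and Them4 (0.938 to 0.962), with Dct ranked 20th, Sox10 126th and Mitf 1988th. For Kit they were Zfp229, Son, A730081D07Rik, Crabp1 and Hspd1 (0.954 to 0.973), and for Pmel Iqcn, C030015A19Rik, Apln, Ccdc163 and Gm45444 (0.899 to 0.930). For the summed CPM of Tyr, Tyrp1, Dct, Pmel and Mlana they were, among 15008 genes, Them4, Adamts5, Aptx, Gm43747 and Slc39a4 (0.907 to 0.951), with Sox10 ranked 16th, Kit 1174th, Mitf 1430th and Kitl 2953rd. By this measure Dct and Tyrp1 each ranked the other and Sox10 ahead of Mitf, while Kitl ranked Mitf ahead of the other members. With 9 libraries and this many genes high values are common, and they are given as a description.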

How the data were processed

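Poly(A) RNA of sorted Touchdome, HF and IFE cells (3 libraries each, 150-nucleotide paired reads, per the labels) was used as deposited. The submitters' processing notes name the build mm39, RSEM 1.3.3, STAR 2.7.9a and DESeq2 1.38.2 without roles; the annotation, like the strand setting, is not given in the sources used here. For each Ensembl gene the authors deposited an expected count, an estimate left unscaled between libraries, and a TPM, scaled by length and without depth. Near-identical and overlapping genes are uncertain. Symbols came from GENCODE M21, another build, and 52081 of 55357 identifiers had one (the rest held 0.673% to 2.13% of counts).

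Counts were rounded, filtered by filterByExpr (minimum count 10, minimum total 15) and TMM-scaled, which left 15046 genes. The 3 comparisons were tested in 1 fit of the 9 libraries by edgeR 4.0.16 (quasi-likelihood, robust; R 4.3.3), with Benjamini-Hochberg adjustment over all genes tested and a threshold of 0.05. The test was checked on simulated data. Levels are CPM at the scaled library size. Alternatives were DESeq2 1.42.0, limma 3.58.1 on log2(TPM + 1) and log2(TPM + 0.1), other scaling, no filter, no robust fit, only 2 groups, the replicate block, and each library left out.

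The replicate numbers come from the titles. Deviations from group means correlated by 0.15, 0.17 and 0.20 between Touchdome and IFE libraries of the same number, so these groups may be paired. The values were 0.07, -0.03 and 0.03 between Touchdome and HF and 0.06, -0.01 and 0.05 between HF and IFE. The labels do not say that a number marks an animal. The main fit therefore had no block, its Touchdome against IFE values are unpaired, and the replicate block is given as an alternative. No 2 libraries of a group agreed within sampling noise (chi-square per degree of freedom 17.1 to 76.7). The pairs with IFE replicate 2 stood apart, at 76.7 and 71.9. IFE replicates 1 and 3 gave 21.7, and the pairs of the other groups gave 17.1 to 27.3. Named were the 9 genes, up to 8 called genes of each of 2 lists by smallest adjusted p, marker lists by their sums, and the 5 genes most alike in pattern. Some genes that this rule names are not reported here. The members and lists were chosen with earlier results of these data known. Of the 107 listed symbols, 1 matched no row, and Asip was matched through its synonym in RefSeq.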

Additional observations from a re-analysis of the deposited data

How the results depend on the processing

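The calls of Mitf in HF against IFE and in Touchdome against HF kept their direction and their side of the threshold in all 17 alternatives, with log2 fold changes of 3.10 to 3.84 and -3.19 to -2.48. Over the 21 results of the 7 tested genes, 327 of 354 alternative values stayed on their side of the threshold or, where no call was made or lost, changed at most in sign, 22 lost a call, 5 gained one and 0 reversed. The calls of Kitl ended only with limma on TPM, in both pseudocounts. In HF against IFE, the adjusted p over the alternatives was 7.32e-05 to 0.0962 for Tyrp1, 3.91e-05 to 0.0848 for Dct, 0.00702 to 0.0861 for Sox10 and 0.00293 to 0.112 for Kit. Tyrp1 and Dct also lost their calls without the low-count filter (0.0538 and 0.0848), Tyrp1 with limma on log2(TPM + 1) and log2(TPM + 0.1) (0.0962 and 0.0596), and Kit with both (0.0612 and 0.112).

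In Touchdome against IFE, 184 genes were called higher and 12 lower. These counts were 446 and 84 with DESeq2, 97 and 0 with limma on log2(TPM + 1), 282 and 67 with the replicate block, and 100 and 5 with only the 2 groups. The count of lower genes was also 49 without the filter and 0 with limma on log2(TPM + 0.1). With 1 library left out they were 105 to 216 and 4 to 29. In HF against IFE, 2571 were higher and 2401 lower, the lower count being 1202 and 1209 with limma on log2(TPM + 1) and log2(TPM + 0.1), and 2168 to 2627 and 1885 to 2379 with 1 library left out. In Touchdome against HF, 1773 and 1930 became 1393 to 2126 and 1324 to 2220. Beside the Tyrp1 call in Touchdome against IFE, the replicate block changed no call of the 7 genes; between HF and the other groups the samples share only a number, and not every library correlated best with its own number. The alternatives for the genes of the lists were added after seeing the data. Limma on log2(TPM + 1) and log2(TPM + 0.1) placed the median of all genes at 0.133 and 0.151 in Touchdome against IFE and at 0.19 and 0.214 in HF against IFE. Depth limits Tyr, Mlana and Sox10, which had at most 13 counts in a library, where 0 counts in an IFE library allow a level of up to 0.114 to 0.211 CPM.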
